A study of Bos taurus with 6 samples.

Results

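RNA-Seq of the longissimus dorsi muscle was used to describe 9 genes of the NF-κB and the SOCS-STAT feedback pathways, which are NFKBIA, NFKB1, RELA, TNFAIP3, SOCS1, SOCS2, SOCS3, STAT3 and STAT5B. They are 9 of the 17258 genes that carry a name and a value in these libraries. The 9 genes were selected on measured values, with their FPKM in the same 6 animals and its difference between the breeds in view. The breed difference of these 9 genes is therefore given as a description, with no p-value.

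The animals were 3 Shandong black cattle (B1, B2 and B3) and 3 Luxi cattle (L1, L2 and L3), all 18 months old and untreated as far as the labels say, with 1 library from each animal. Shandong black cattle were bred from Japanese black, Luxi and Bohai black cattle and descend from cloned cattle, and Luxi cattle are a local yellow breed. The 2 breeds came from different companies, so breed and source cannot be told apart. The study compared them to find genes that accompany differences in fat deposition. The values are FPKM, which counts fragments for each kilobase of a transcript and scales them by the fragments of the library, so levels of different genes can be compared per length.

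NF-κB dimers, such as those of RELA and the product of NFKB1, wait in the cytoplasm bound to IκB proteins, and enter the nucleus when IκB is destroyed after a stress or cytokine signal. NFKBIA, which encodes IκBα, and TNFAIP3, which encodes a ubiquitin-editing enzyme, are themselves NF-κB target genes and close a negative feedback loop. In the JAK-STAT pathway, cytokine and growth hormone receptors activate STAT proteins, and STATs induce SOCS genes, whose products block the receptors and their JAK kinases. In skeletal muscle both pathways are known for their part in wasting, in repair and in the response to growth hormone.

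The labelled tissue was checked first. All 10 skeletal muscle marker genes were listed in every animal, and ACTA1, the actin of skeletal muscle, reached 54910 FPKM. The libraries held between 14.1 and 14.6 gigabases of aligned sequence for Shandong black cattle and at least 17.5 for Luxi cattle, so the depth moved with the breed. The library of L1 stood apart: its FPKM correlated with L2 and L3 at r = 0.878 and 0.894, against 0.947 between L2 and L3 (across genes on the log scale, which are not independent), and its ACTA1 level was 12237 FPKM. Its share of FPKM that entered no gene, 30.8%, was the highest of the 6. Depth at the second exon against the second last was also lowest in L1, with a median log2 ratio of -0.43 against -0.34 to -0.20 in the other animals. The 9 genes are given with and without L1 where it moves their difference. The median difference of all 9765 genes tested was 0.13 on the log2(FPKM + 1) scale, Luxi minus Shandong black, and 0.02 with median-of-ratios size factors.

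NFKBIA had the highest level of the 9 genes in both breeds. Its FPKM was 16.8, 13.8 and 16.1 in B1, B2 and B3, and 40.2, 52.5 and 45.5 in L1, L2 and L3. The means were 15.6 ± 1.60 (SD, n = 3) in Shandong black and 46.1 ± 6.20 (SD, n = 3) in Luxi cattle, a ratio of 2.96. Every Luxi animal lay above every Shandong black animal, by a gap that exceeded the range within either breed. The difference in log2(FPKM + 1) was 1.50 with a standard error of 0.14. It ranged from 1.41 to 1.60 when each animal was left out in turn and was 1.36 with size factors, so L1 did not carry it.

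In the ARS-UCD1.2 build NFKBIA occupies positions 45639614 to 45643009 of chromosome 21, on the minus strand, with 1 annotated transcript of 6 exons and 1576 bases. All of its FPKM came from this annotated transcript in every animal. The read depth, divided by the aligned gigabases of the library, was higher in each Luxi animal than in each Shandong black animal at all 6 exons. The ratio of the breed means ran from 2.0 at exon 5 to 3.95 at exon 2. Exon 2, of 109 bases, was the deepest exon in all 6 animals, with 42.4, 43.6 and 41.7 reads per base and gigabase in B1, B2 and B3 and 145, 194 and 167 in L1, L2 and L3. The last exon held 10.9, 7.35 and 8.80 in the Shandong black and 22.3, 22.2 and 17.3 in the Luxi animals. Depth was thus uneven along the gene in both breeds, and the breed difference was present from the first to the last exon.

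The transcription factor subunits stood lower and closer together than their inhibitor. NFKB1, which encodes the precursor of an NF-κB subunit, had FPKM values of 3.49, 3.13 and 3.28 in B1 to B3 and 3.69, 4.61 and 4.71 in L1 to L3. The breeds did not overlap, but L1 exceeded B1 by only 0.193 FPKM, and the breeds overlapped with size factors and with quantile normalization. The log2 difference of NFKB1 was 0.31 ± 0.098 (SE), or 0.19 with size factors. NFKB1 spans 113412 bases of chromosome 6, from 22205849 to 22319260, and nearly all of its FPKM came from transcripts assembled from the reads on its 24 annotated exons. The annotated transcript itself was listed in B3 alone, with 2.56% of the FPKM of NFKB1 there. Same-strand transcripts inside NFKB1 that entered no gene held 0.939, 0.688 and 1.27 FPKM in B1 to B3. In L1, L2 and L3 they held 0.942, 0 and 0 FPKM, and their part in the NFKB1 difference was not tested.

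RELA encodes the main transactivating subunit and lies on chromosome 29 from 43830895 to 43839537. Its FPKM was 7.31, 3.94 and 7.08 in the Shandong black animals and 5.78, 9.44 and 7.29 in the Luxi animals. The breeds overlapped, since L1 lay below B1 and B3. The means were 6.11 ± 1.88 and 7.50 ± 1.84 (SD, n = 3 each), closer to each other than 1 SD of either breed. At 4 of the 11 exons of RELA, exons 2 to 5, depth per gigabase did not overlap between the breeds and was higher in Luxi cattle, while the mean was lower in Luxi cattle at exons 7, 8 and 9. This depth is the part of the reads given to the annotated transcript. Transcripts assembled on RELA exons held 10.8% of its FPKM in L1, 13.0% in L2 and 0% in the other animals. Their part in these depths was not tested.

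TNFAIP3 had low levels in this muscle. Its FPKM was 0.882, 0.682 and 0.940 in B1 to B3 and 1.16, 0.421 and 0.581 in L1 to L3. L1 held the highest and L2 the lowest value of all animals, and the breeds overlapped. Among the 9 genes TNFAIP3 was the only 1 with a lower mean in Luxi cattle, 0.719 ± 0.386 against 0.835 ± 0.135 (SD, n = 3). Without L1 both remaining Luxi animals lay below all Shandong black animals, and the log2 difference moved from -0.11 to -0.29. It turned to 0.01 without L2. TNFAIP3 lies on chromosome 9 from 75741020 to 75756965, and the shorter of its 2 annotated transcripts, of 2343 bases, held between 72.3 and 93.8% of its FPKM.

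The ratio of inhibitor to subunit follows from the values above and separated the breeds further than the subunits did. NFKBIA was 4.82, 4.40 and 4.90 times NFKB1 in B1, B2 and B3, and 10.9, 11.4 and 9.65 times in L1, L2 and L3. Against RELA, NFKBIA was 2.31, 3.49 and 2.27 times as high in the Shandong black animals and 6.96, 5.57 and 6.23 times as high in the Luxi animals. Neither ratio overlapped between the breeds, and a constant that scales a library changes neither. TNFAIP3, the other feedback gene, stood at 0.0524, 0.0496 and 0.0585 of NFKBIA in B1 to B3, and at 0.0287, 0.00802 and 0.0128 in L1 to L3. Across the animals the 2 feedback genes of NF-κB ran in different orders (Pearson r = -0.37 on the log2 scale, n = 6, a description).

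**Figure D1:**
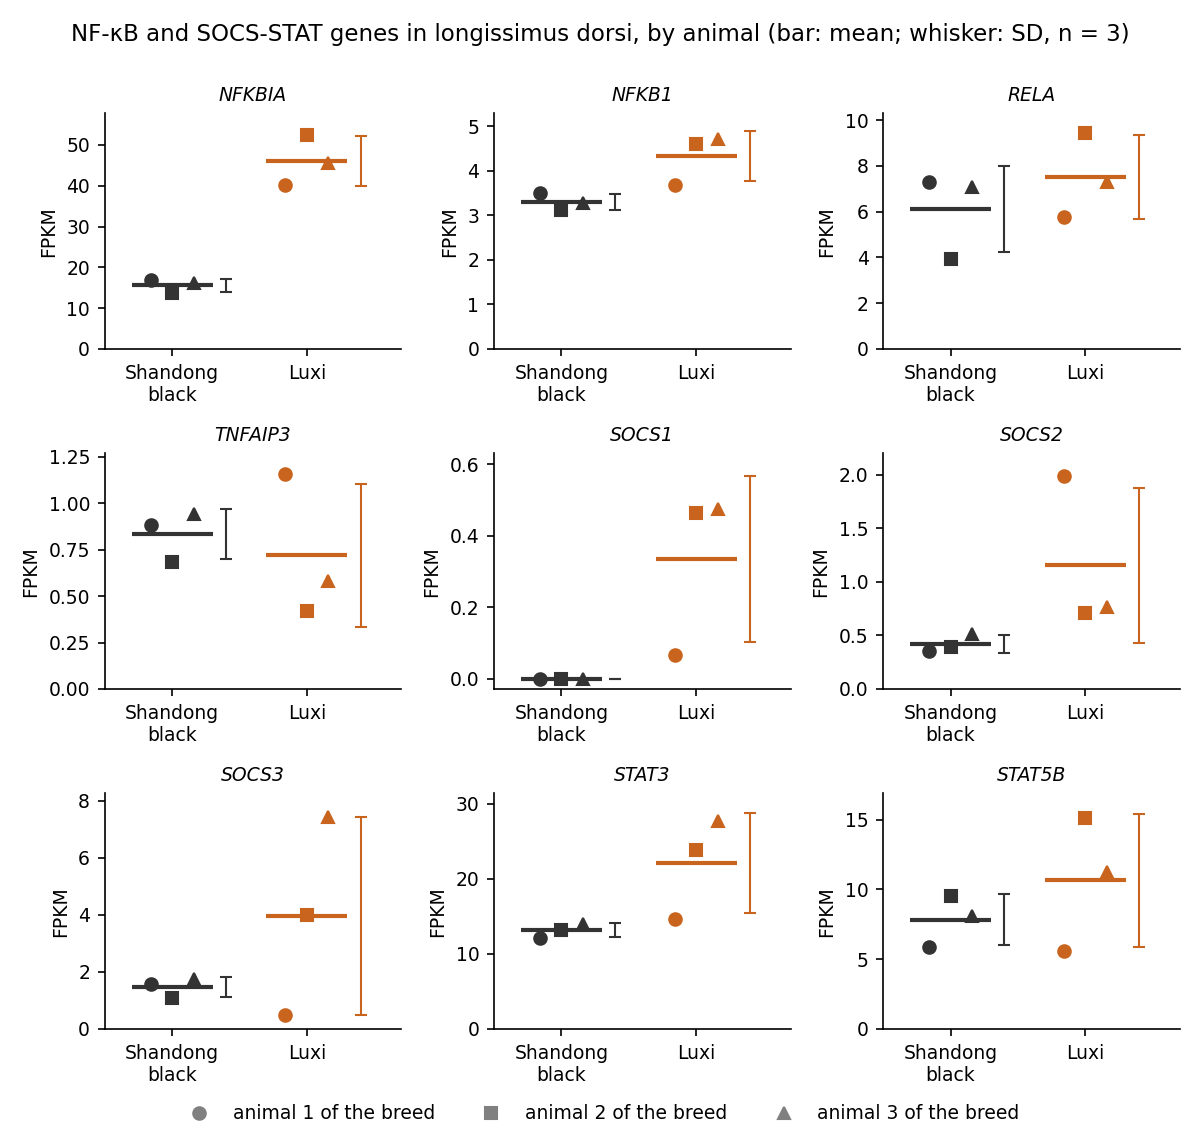
FPKM of the 9 genes in each animal (y axis, linear, a scale of its own for each gene) by breed (x axis), with the mean as a bar and the SD of 3 animals as a whisker. All 3 Luxi animals lie above all Shandong black animals for NFKBIA, NFKB1, SOCS1, SOCS2 and STAT3, while L1 (orange circle) is the lowest Luxi animal for 7 genes and the highest for TNFAIP3 and SOCS2.

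The SOCS genes had low levels in this muscle. SOCS1, which restrains JAK kinases in interferon signalling, was listed at 0 in B1, B2 and B3 and at 0.0669, 0.462 and 0.474 FPKM in L1, L2 and L3. No fold is given against a breed listed at 0. SOCS1 lies on chromosome 25 from 9912587 to 9914409. The annotated transcript was the one found in L1, and in L2 and L3 all FPKM of SOCS1 came from transcripts assembled on its exons. With annotated transcripts only, L1 alone was above 0 and the breeds overlapped.

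SOCS2 restrains growth hormone signalling and is a known target of STAT5. Its FPKM was 0.351, 0.387 and 0.517 in B1 to B3 and 1.99, 0.710 and 0.763 in L1 to L3. The breeds did not overlap, and the highest value, in L1, was more than 2 times the next. The means were 0.418 ± 0.0870 and 1.16 ± 0.726 (SD, n = 3), a ratio of 2.76. The log2 difference was 0.56 ± 0.27 (SE), or 1.14 with a pseudocount of 0.1, and fell to 0.29 without L1, with the breeds still apart. At all 3 exons of its leading transcript the depth per gigabase was higher in every Luxi animal. SOCS2 is on chromosome 5 from 23367484 to 23372592, and its transcript of 2424 bases held between 57.2 and 100% of its FPKM.

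SOCS3, the inhibitor that binds the shared receptor chain of the interleukin 6 family, had the widest spread of the 9 genes within Luxi cattle. Its FPKM was 1.59, 1.07 and 1.77 in B1 to B3 and 0.484, 3.98 and 7.44 in L1 to L3. The lowest and the highest value of all 6 animals were both Luxi, so the breeds overlapped. The mean was 3.97 ± 3.48 in Luxi and 1.48 ± 0.360 in Shandong black cattle (SD, n = 3). The log2 difference was 0.69 ± 0.75 (SE). It rose to 1.40 without L1, when both Luxi animals exceeded all Shandong black animals, and dropped to 0.15 without L3.

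SOCS3 had 2 annotated transcripts, both on chromosome 19 between 53839314 and 53842544. The longer, of 2653 bases, had 0.952, 0.658 and 1.19 FPKM in B1 to B3, was listed at 0 in L1 and had 3.23 and 6.43 FPKM in L2 and L3. The shorter, of 700 bases and inside the longer, had 0.636, 0.416 and 0.582 FPKM in B1 to B3 and 0.484, 0.748 and 1.01 in L1 to L3. The low SOCS3 level of L1 was therefore that of an animal in which the longer transcript was not found, while the shorter one lay within the range of the Shandong black animals.

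STAT3, which carries the signal of the interleukin 6 family and of leptin, was the second of the 9 genes by level in both breeds. Its FPKM was 12.2, 13.3 and 14.0 in B1 to B3 and 14.7, 23.9 and 27.7 in L1 to L3. L2 and L3 stood well above the other 4 animals and L1 only 0.675 FPKM above B3. The means were 13.2 ± 0.927 and 22.1 ± 6.70 (SD, n = 3), a ratio of 1.68. The log2 difference of STAT3 was 0.66 ± 0.27 (SE), rose to 0.92 without L1 and was 0.53 with size factors, under which L1 and B3 overlapped.

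STAT3 had 5 annotated transcripts on chromosome 19 from 42417948 to 42491883. The longest, of 4401 bases, held between 49.5 and 56.9% of the STAT3 FPKM in Shandong black cattle, and 85.4, 55.8 and 86.4% in L1, L2 and L3. Its last exon, of 1957 bases, is longer than the last exon of the other listed forms. The depth assigned to that exon was 0.773, 0.751 and 0.681 reads per base and gigabase in B1 to B3, and 11.3, 1.19 and 21.0 in L1 to L3. L1 and L3 stood more than 9 times above L2, and all 3 Luxi animals above the Shandong black animals. Over the whole transcript, depth did not overlap between the breeds at 12 of 24 exons, all higher in Luxi cattle. Exon depth is the part of the reads that the assembly gave to this transcript, and reads shared between forms may be divided differently between animals.

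**Figure D2:**
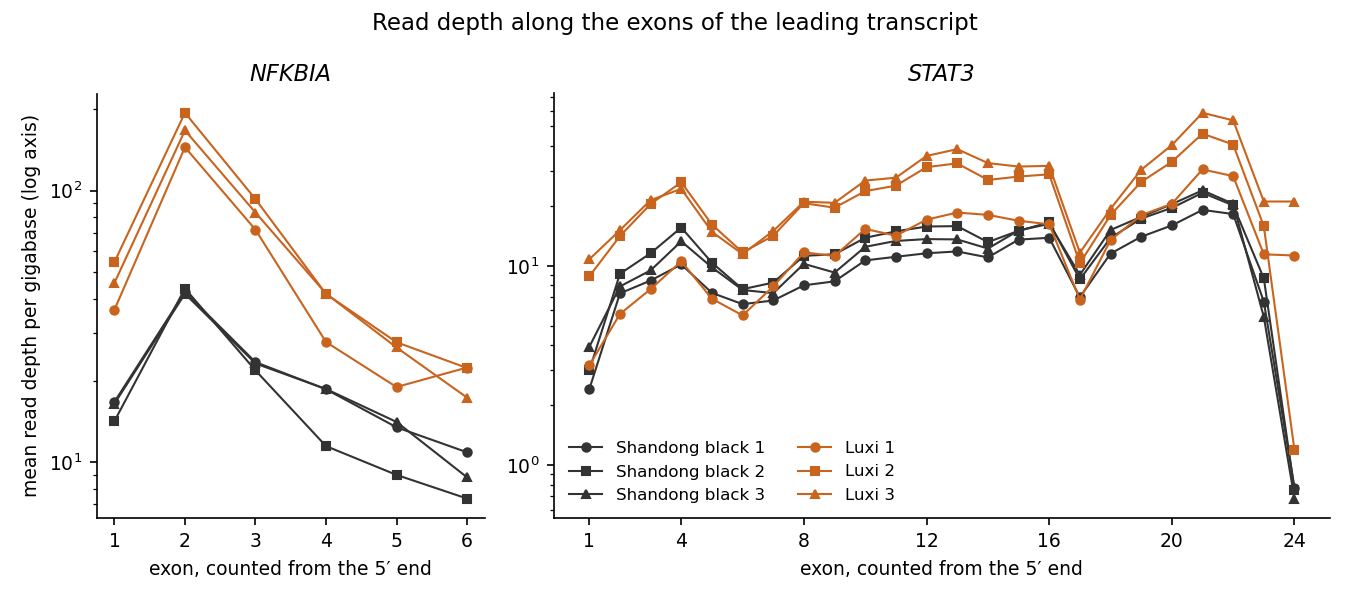
Mean read depth per aligned gigabase (y axis, log scale) at each exon of the leading annotated transcript, counted from the 5′ end (x axis), for NFKBIA (6 exons) and STAT3 (24 exons), with 1 line for each animal. The 3 Luxi lines lie above the Shandong black lines at every NFKBIA exon, and at exon 24 of STAT3 the Luxi animals L1 and L3 stand at 11.3 and 21.0 while L2, at 1.19, is near the Shandong black animals.

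STAT5B, which carries the growth hormone signal, had FPKM values of 5.88, 9.54 and 8.06 in B1 to B3 and 5.59, 15.1 and 11.3 in L1 to L3. L1 held the lowest value of all animals and L2 the highest, so the breeds overlapped. The log2 difference was 0.33 ± 0.42 (SE). Without L1 it was 0.69 and the breeds were apart, and without L2 it was 0.05. No exon of the leading STAT5B transcript had depths that were apart between the breeds, of 19.

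STAT5B, STAT5A and STAT3 are neighbours on chromosome 19. STAT5B lies 10.6 kb from STAT5A, and STAT5A lies 2.45 kb from STAT3. STAT5A, a close paralog of STAT5B that can share reads with it, had 2.50, 2.78 and 2.66 FPKM in B1 to B3 and 3.40, 5.85 and 6.43 in L1 to L3. Its log2 fold change was 0.74 (limma adjusted p = 0.125), and with annotated transcripts only it was -1.87 (limma adjusted p = 0.00812), so the direction of STAT5A rests on how assembled transcripts are counted. SOCS3 lies on the same chromosome, 11347 kb from STAT3.

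Across the set, 5 of the 9 genes had all Luxi animals above all Shandong black animals, which were NFKBIA, NFKB1, SOCS1, SOCS2 and STAT3, and the other 4 overlapped. Of the 7 that passed the filter 4 had that pattern, against 20.0% of all genes tested. Without L1 the count was 7 of 9, among them SOCS1 and SOCS2, which did not pass the filter there. In that setting 35.9% of all genes tested had the pattern. These counts come from the contrast that was in view when the genes were chosen, and nothing is read from them. The limma fit across all genes called 1 of the 7 that passed the filter, NFKBIA, against 2.55% of all genes tested, and again nothing is read from it. That call was lost in 5 of the 6 fits that left out 1 animal, those without B1, B2, B3, L2 or L3, and with the replicate number as a block. TNFAIP3 and SOCS1 had a mean under 1 FPKM in both breeds and were not tested, and SOCS2 passed through its Luxi mean of 1.16 FPKM alone.

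The median log2 difference was 0.40 for all 9 genes and 0.56 for the 7 that passed the filter, beside 0.13 over all genes tested. L1 was the lowest Luxi animal for 7 of the 9 genes and the highest for 2, TNFAIP3 and SOCS2. Over all genes tested L1 was the lowest Luxi animal in 47.2% and the highest in 32.6%.

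**Figure D3:**
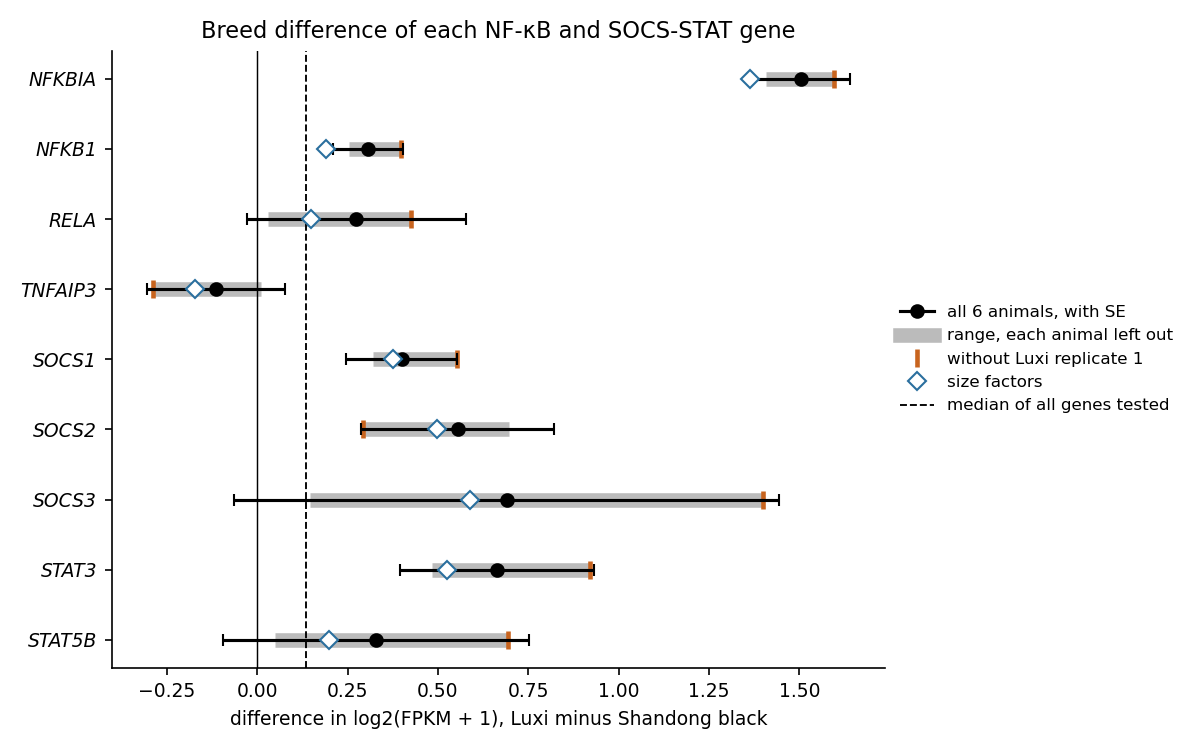
Difference in log2(FPKM + 1), Luxi minus Shandong black (x axis), for each of the 9 genes, with the standard error of the 6-animal value, the range when each animal is left out, the value without L1 (Luxi replicate 1) and the value with size factors. NFKBIA stays between 1.36 and 1.60 in the settings drawn, while SOCS3 runs from 0.15 to 1.40.

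The order of the levels was nearly the same in both breeds. In Shandong black cattle it ran NFKBIA, STAT3, STAT5B, RELA, NFKB1, SOCS3, TNFAIP3, SOCS2 and SOCS1. NFKBIA and STAT3 overlapped there, at 13.8 to 16.8 and 12.2 to 14.0 FPKM, and so did STAT5B and RELA, while the other neighbours did not overlap. In Luxi cattle NFKBIA stood clear of STAT3, at 40.2 to 52.5 against 14.7 to 27.7 FPKM, and SOCS2 and TNFAIP3 changed places. From STAT3 downwards all neighbours in Luxi cattle overlapped, except RELA and NFKB1.

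L1 was the highest Luxi animal for SOCS2 and the lowest for SOCS3, while L3 exceeded L2 for both. In L1 SOCS2 was 4.12 times SOCS3, whereas the ratio was 0.178 in L2, 0.102 in L3 and between 0.221 and 0.360 in the Shandong black animals. CISH, a further STAT5-induced inhibitor, was also highest in L1, at 10.3 FPKM against 1.35 and 2.71 in L2 and L3. SOCS3 stood at 0.0329, 0.167 and 0.268 of STAT3 in L1, L2 and L3 and at 0.130, 0.0810 and 0.126 in B1, B2 and B3, so this ratio overlapped between the breeds.

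The genes whose pattern over the 6 animals was most like that of NFKBIA were GTPBP1, PPP6R2 and LYSMD1, with Pearson r of 0.998, 0.997 and 0.997 of log2(FPKM + 1). GTPBP1 had 2.84, 2.50 and 2.88 FPKM in B1 to B3 and 4.73, 5.20 and 4.98 in L1 to L3, the same order of animals within Luxi cattle as NFKBIA. The genes most like SOCS3 were PARP1, METTL22 and CLTB, with r of 0.998, 0.998 and 0.996. PARP1 had 8.09, 7.47 and 8.37 FPKM in B1 to B3 and 6.80, 10.03 and 12.3 in L1 to L3, again with L1 lowest and L3 highest. An r of at least 0.95 was reached by 219 genes for NFKBIA and by 114 genes for SOCS3. The genes named here are the highest of many, and these values do not single them out. All points share the same 6 libraries, so the values of r are descriptions with no p.

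Among the 9 genes, SOCS1 followed STAT3 most closely (r = 0.98, n = 6), and NFKB1 followed SOCS1 (r = 0.97). TNFAIP3 and STAT5B ran in opposite directions (r = -0.94). NFKBIA and SOCS3 had the highest mean level of the feedback genes of their pathway among the 9 genes only. They were less alike (r = 0.51), with L1 near the other Luxi animals for NFKBIA and below all animals for SOCS3.

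Other genes of the 2 pathways, in 7 lists, and immediate early and glucocorticoid-induced genes, in 2 further lists, were tested in the same limma fit with Benjamini-Hochberg adjustment over all genes. Of 125 genes, 116 had values, 9 were not analysed here, and 99 passed the filter. Called were 3 of the 99, all higher in Luxi cattle and all from the list of glucocorticoid-induced genes, against 2.55% of all genes tested. In 19 of the 99 all Luxi animals lay above all Shandong black animals, against 20.0% of all genes tested. The 7 lists of the NF-κB and JAK-STAT pathways held no called gene by limma among 74 tested, with 14 at an unadjusted p under 0.05, nor did the immediate early genes hold one. Over the 9 lists 21 of the genes not called had an unadjusted p under 0.05. Of all 9765 genes tested, 2135 had an unadjusted p under 0.05 in the limma fit. Nothing is read from such counts, here or for the single lists below. The median log2 fold change of the 99 genes was 0.09.

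The other NF-κB subunits and IκB proteins did not share the NFKBIA values. Of 8 genes, 5 were tested and none was called by limma, nor had any an unadjusted p under 0.05, and the breeds overlapped for all 5, with a median log2 fold change of -0.33. NFKBIZ, a nuclear IκB protein, had the largest change in size, 0.47 (limma adjusted p = 0.266). NFKBIB, the IκBβ gene, had 3.28, 2.38 and 2.77 FPKM in B1 to B3 and 1.13, 3.05 and 2.15 in L1 to L3, and was named after its values were seen, as the nearest relative of NFKBIA with values at that level.

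Of the kinases, adaptors and ubiquitin editors of NF-κB, 14 of 16 were tested and none was called by limma, with 3 at an unadjusted p under 0.05. The largest change was that of CYLD, a deubiquitinase that restrains NF-κB, with 16.2, 5.86 and 11.8 FPKM in B1 to B3 and 2.02, 3.01 and 3.41 in L1 to L3. Every Luxi animal lay below every Shandong black animal, with a log2 fold change of -1.61 ± 0.35 (SE) that missed the threshold (limma adjusted p = 0.0585). CYLD passed it with size factors (limma adjusted p = 0.0426) and quantile normalization (limma adjusted p = 0.0374).

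The JAK kinases and other STATs held 7 tested genes and no call by limma, with 1 gene, STAT5A, at an unadjusted p under 0.05. JAK1 had the highest level of this list, 22.9, 23.7 and 23.9 FPKM in B1 to B3 and 17.1, 27.7 and 21.4 in L1 to L3. Of the other feedback inhibitors all 13 were tested and none was called by limma, with 5 at an unadjusted p under 0.05. CISH had the largest log2 fold change, 0.88 (limma adjusted p = 0.387), and without L1 it was 0.23 (limma adjusted p = 0.661). The nearest to the threshold was SOCS7, at 1.88, 2.64 and 2.0 FPKM in B1 to B3 and 4.82, 3.97 and 4.43 in L1 to L3 (log2 fold change 0.77, limma adjusted p = 0.0586). SOCS7 was named after its values were seen.

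Receptors and ligands gave no call by limma either. Of the receptors 16 of 19 with values were tested, none had an unadjusted p under 0.05, and the largest change was that of GHR, the growth hormone receptor, at -0.67 (limma adjusted p = 0.281), with 15.0 and 14.8 FPKM in L1 and L3 and 28.8 to 33.1 in the other 4 animals. Of the ligands only 3 of 10 passed the filter, and 2 of them had an unadjusted p under 0.05. CLCF1, a ligand of the interleukin 6 family, had the largest change, -1.33 (limma adjusted p = 0.118). IL6 was listed at 0 in 4 of the 6 animals, with 0.0900 FPKM in B3 and 0.576 FPKM in L3.

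Of the known target genes 19 were tested and none was called by limma, with 3 at an unadjusted p under 0.05, and CISH had the largest change here too. Of the immediate early genes 15 were tested and none was called by limma, with 4 at an unadjusted p under 0.05. The largest change was that of ZFP36, which encodes an mRNA-destabilizing protein, at 14.7, 12.04 and 14.6 FPKM in B1 to B3 and 24.5, 56.8 and 69.8 in L1 to L3 (log2 fold change 1.68, limma adjusted p = 0.0677). Without L1 the log2 fold change of ZFP36 was 2.12 and it was called (limma adjusted p = 0.0115). JUNB, which shares the SOCS3 order of animals, had 16.8, 15.9 and 18.4 FPKM in B1 to B3 and 4.58, 35.2 and 45.4 in L1 to L3, and it too was called without L1 (limma adjusted p = 0.0246).

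The list of glucocorticoid-induced genes held the 3 calls. It was written with earlier results of these data known, and any part of glucocorticoids in the values of NFKBIA was not tested. All 11 genes were tested, and limma called 3 higher in Luxi cattle and none lower. In 6 of them all Luxi animals lay above all Shandong black animals, against 20.0% of all genes tested. The median log2 fold change of the list was 0.81. DDIT4, an inhibitor of mTOR signalling, had 6.71, 9.32 and 8.51 FPKM in B1 to B3 and 58.0, 68.6 and 41.8 in L1 to L3. Its log2 fold change was 2.62 ± 0.25 (SE, limma adjusted p = 0.00914). PER1, a clock gene, had 4.05, 5.61 and 5.20 FPKM in B1 to B3 and 20.3, 41.0 and 18.7 in L1 to L3, a rise of 2.14 on the log2 scale (limma adjusted p = 0.0256). ZBTB16, a transcription factor, had 7.90, 13.6 and 13.0 FPKM in B1 to B3 and 35.3, 31.0 and 43.5 in L1 to L3, a rise of 1.61 on the log2 scale (limma adjusted p = 0.0324).

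These 3 calls rest on single animals to a different degree. Without B1 the limma adjusted p was 0.0595 for DDIT4, 0.114 for PER1 and 0.122 for ZBTB16, and without B3 it was 0.0720, 0.123 and 0.138. ZBTB16 was also lost without B2 (limma adjusted p = 0.0526), L2 (0.0733) and L3 (0.0930). The log2 fold changes stayed between 1.38 and 2.81 in all of these. FKBP5 and TSC22D3, which many tissues raise under glucocorticoids, were not called (limma adjusted p = 0.145 and 0.290), though their breeds did not overlap, and the log2 difference of SGK1 was -0.63 (limma adjusted p = 0.487). These 3 genes, with JAK1, IL6 and JUNB above, were named after their values were seen.

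**Figure D4:**
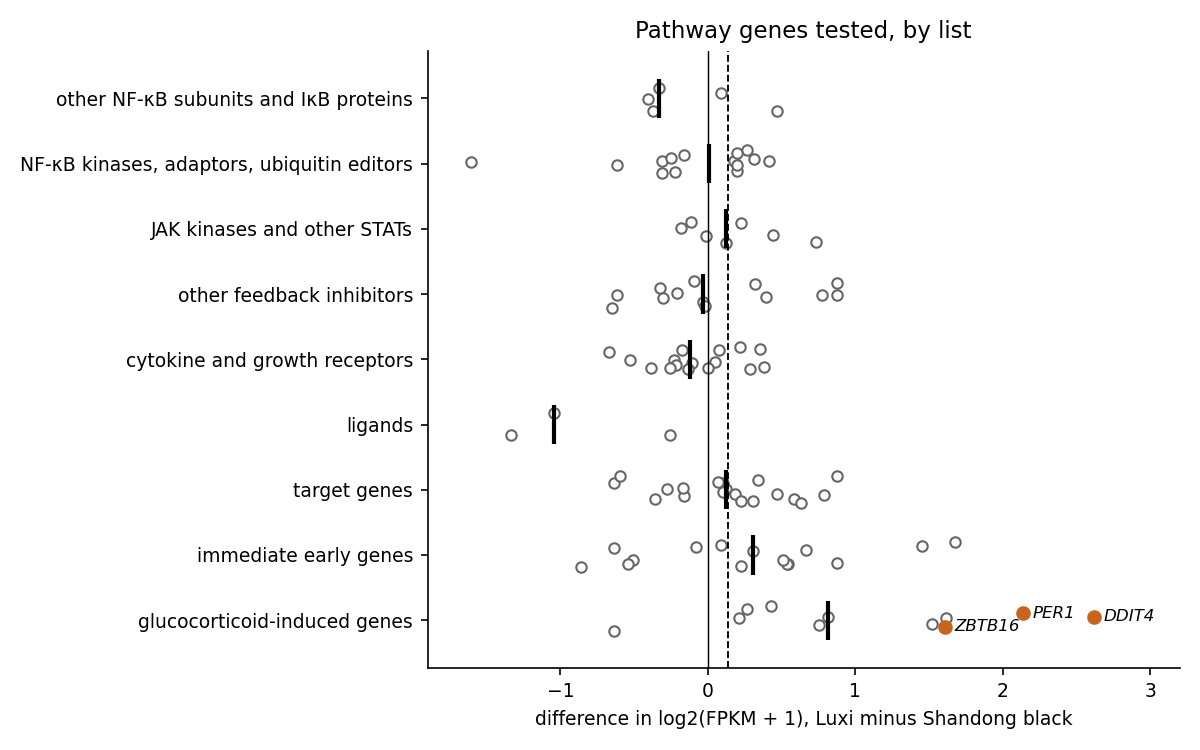
Log2 fold change of each tested gene of the 9 lists, Luxi minus Shandong black (x axis), by list (y axis), with genes called by limma as filled points, the list median as a black bar and the median of all genes tested as a dashed line. The 3 called genes, DDIT4, PER1 and ZBTB16, stand in the glucocorticoid-induced list at 2.62, 2.14 and 1.61.

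Markers of other cell types differed between these muscles, and in bulk tissue fewer cells of a type and less RNA per cell cannot be told apart. The summed FPKM of 6 adipocyte markers was 116 to 180 in Shandong black and 3.09 to 19.2 in Luxi cattle, with 5 of 6 called lower by limma and LEP listed at 0 in L1. The 8 fibroblast markers summed to 131 to 206 in Shandong black and 421 to 533 in Luxi cattle, with 2 called higher, COL1A2 and COL3A1. COL3A1 had 22.4, 20.4 and 23.2 FPKM in B1 to B3 and 194, 145 and 192 in L1 to L3. COL1A1, COL1A2, COL3A1 and PDGFRA were higher in every Luxi animal. DCN, LUM and FBLN1 overlapped between the breeds, and DPT was lower in every Luxi animal. The 7 endothelial markers with values summed to 27.1 to 32.8 and 34.0 to 95.2, highest in L1, as SOCS2 was. None of them was called by limma, with 2 at an unadjusted p under 0.05. Only PECAM1 and CDH5 were higher in every Luxi animal. KDR, TEK, TIE1, ESAM and EGFL7 overlapped between the breeds, and the mean of TIE1 was lower in Luxi cattle. The part of these cell types in the values of the 9 genes was not tested.

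Immune cell markers were listed as well. The 10 macrophage markers with values summed to 34.1 to 45.8 in Shandong black and 18.1 to 36.8 in Luxi cattle, with AIF1 listed at 0 in L3. None of them was called by limma, and 2, CSF1R and C1QA, had an unadjusted p under 0.05 and were lower in every Luxi animal. The 6 lymphocyte markers summed to 2.21 to 2.89 in Shandong black and 0.331 to 1.76 in Luxi cattle without overlap, with CD3E, CD3G, CD4 and CD79A listed at 0 in some animals. None of the 6 passed the filter. CD3E, CD3D, CD2 and CD79A each overlapped between the breeds, while CD3G and CD4 were lower in every Luxi animal. The 4 neutrophil markers summed to 0.416 to 0.492 in Shandong black and 0.848 to 4.12 in Luxi cattle, and the 4 red blood cell markers to no more than 1.65. The neutrophil sum was highest in L3, where S100A9 held 2.50 FPKM of it. S100A9 and S100A12 were higher in every Luxi animal, while S100A8 and CXCR2 overlapped between the breeds. S100A8, S100A9 and CXCR2 were listed at 0 in some animals, CXCR2 in all Luxi animals. Of the 4 neutrophil markers only S100A9 was tested, and it was not called (limma adjusted p = 0.255). The part of these cells in the values of the 9 genes was not tested.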

How the data were processed

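The longissimus dorsi muscle of 6 animals was sequenced by the authors, with 1 library each. Breeds and replicate numbers were taken from the labels. The authors aligned reads with HISAT to ARS-UCD1.2 and assembled transcripts with StringTie (version 1.3.3b per the file headers), guided by the NCBI annotation and with a strand option. Per the file headers and values, the deposited transcript records hold coverage, FPKM and TPM as attributes, and the other fields are coordinates and names. Differences in coverage along a transcript are averaged in FPKM.

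Gene FPKM was the sum over annotated transcripts and over those unnamed assembled transcripts of which 50% or more of the bases lay on exons of the gene, same strand. Between 21.9 and 30.8% of the FPKM of a library entered no gene. Genes with a mean of at least 1 FPKM in at least 1 breed were tested on log2(FPKM + 1) with limma 3.58.1 (lmFit, eBayes with trend) in R 4.3.3, and Benjamini-Hochberg adjustment. Genes were called when the adjusted p was under 0.05 and the log2 fold change was 1 or more in size. On this scale changes of low genes are understated. The fit was tested on simulated data. The authors' test, Cuffdiff, needs alignments and was not run. Read counts are not used here, and the number of animals limits the precision. The limma p-values set the breed difference against the spread between animals of a breed, which eBayes moderates over all genes.

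The 9 genes and the lists were chosen with earlier results of these data known. Named are the 9 genes, every called gene of the lists, the largest change in each list, and the 3 genes most like NFKBIA and SOCS3. Coordinates are those of the files. Python 3.11.15 and pandas 2.3.3 were used. Alternatives were a pseudocount of 0.1, no filter, size factors, quantile normalization, TPM, annotated transcripts only, no trend, a replicate block, leaving out each animal and a log2 fold change threshold of 2.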

Additional observations from a re-analysis of the deposited data

How the results depend on the processing

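Over all genes, limma called 249, with Luxi cattle higher in 152 and lower in 97. This split was 114 and 134 with size factors, and 125 and 160 under quantile normalization. The number called was 65 without the filter, 162 with annotated transcripts only, 65 at a log2 fold change threshold of 2, and 3 to 591 when an animal was left out (15 without B1, 3 without B3, 591 without L1, 48 without L2 and 86 without L3). Of the genes of the 9 lists, 1 was called without the filter, 5 with quantile normalization and 6 with TPM, and 0 to 7 with an animal left out (0 without B1 or B3, 7 without L1). The count of the 9 genes with no overlap in either direction, 5, became 3 with size factors and 3 with annotated transcripts only. With an animal left out it was 5 to 8, 8 being the value without L1, where TNFAIP3 was lower in Luxi cattle. Over all genes tested, which leave out TNFAIP3 and SOCS1, the breeds did not overlap for 2846 of 9765, and for 2738 of 9717 with size factors. The counts were 2533 of 8929 with annotated transcripts only and 4887 of 9697 without L1. Of 117 log2 differences of the 9 genes under the alternatives, 111 moved by less than 1 SD between animals. Some of the 117 could not move, so the count of 111 overstates how stable the differences are. The missing filter and the replicate block leave a difference of breed means as it is. Leaving out a Shandong black animal does the same for SOCS1. SOCS1 moved to 1.92 with a pseudocount of 0.1, 0.77 with TPM and 0.03 with annotated transcripts only, SOCS2 to 1.14 with the pseudocount, and NFKB1 to 0.16 with quantile normalization and -0.04 with annotated transcripts only. The sign changed in 2 of the 117, NFKB1 with annotated transcripts only and TNFAIP3 without L2. The cause was not tested. With the replicate number as a block, 134 genes were called, among them DDIT4 and PER1 and not ZBTB16. Deviations of same-numbered animals correlated at 0.0905, 0.0899 and 0.0816, each the best match of its Luxi animal, a hint from the data only, and the numbers were not taken to pair the animals.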

Other observations

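An assembled transcript on the strand opposite to NFKBIA was found inside its span in every animal. Its FPKM was 0.306, 0.603 and 0.325 in B1, B2 and B3 and 0.651, 0.524 and 0.857 in L1, L2 and L3, so the breeds overlapped. At STAT3 opposite-strand transcripts were also found in every animal, with a summed FPKM between 0.161 and 1.04. The labels name the library kit without saying whether it keeps the strand, so the strand of such low transcripts is that given by the assembly.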
